A study of Mus musculus with 23 samples.

Results

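Loading of the tibia for 2 weeks was compared between the loaded and the nonloaded leg of mice that drank L-BAIBA throughout. The comparison holds 6 of the 23 libraries of the series, 3 from loaded and 3 from nonloaded tibiae, taken by their labels alone. The mice were wild-type C57BL/6 males aged 5 months and received L-BAIBA (the L-enantiomer of β-aminoisobutyric acid) at 100 mg/kg a day in the drinking water. The right tibia was compressed at 8.25 N in 3 bouts a week, the left tibia of the same animals was the nonloaded control, and bone was collected 24 hours after the last bout. RNA from the right tibiae of 2 mice was combined into 1 library and that from their left tibiae into another, so the 3 mouse pools, named R4+R5, R13+R14 and R15+R11 in the labels, each gave a loaded and a nonloaded library. Vehicle mice (the same strain, sex, age and loading, with regular water) were fitted together with these libraries, so that they share the filter and the estimate of spread, and gave the test of whether the effect of loading differed between treatments. The nonloaded tibia was always the other leg of a loaded animal, not one from an animal left unloaded.

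Osteocytes are the cells buried in mineralized bone, where they sense strain and signal to the cells of the bone surface through Wnt ligands and antagonists, BMPs, osteoprotegerin and FGF23. L-BAIBA is a metabolite that contracting muscle releases. Long bones also carry cells that flushing and digestion with collagenase and EDTA may leave behind, among them marrow cells, vessels, nerve, periosteum and growth plate cartilage, and in bulk RNA fewer cells of a type and less RNA per cell cannot be told apart.

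Counts per library were 6368289, 16042501 and 15194309 in the loaded and 6632189, 18318951 and 8603144 in the nonloaded tibiae, here and below in the order R4+R5, R13+R14, R15+R11. Values per library are CPM, a count divided by library size in units of 1e+06 reads, after scaling by the trimmed mean of M values. Markers of osteocytes were abundant, *Dmp1* (a mineral-nucleating matrix protein) at 7939, 1228 and 1900.2 CPM in loaded and 7250.3, 2504 and 2292 CPM in nonloaded tibiae, while *Fgf23* was between 7.09 and 16.7 CPM. Both libraries of pool R4+R5 stood apart on the first principal component of the 12 libraries of the 2-week experiment (35.7% of the variance), at 60.6 and 72.8 against -33.7 to 1.02 for the other 4 libraries with L-BAIBA. The ribosomal RNA precursor *Rn45s*, which selection of poly(A) RNA removes only in part, was at 17142, 15613 and 3636 CPM in loaded and 2816, 3103 and 14184 CPM in nonloaded tibiae, so it was higher on the loaded side of the first and second pools and lower on that of the third. The list of 6 RNA-quality transcripts, which holds *Rn45s* and nuclear RNAs such as *Malat1*, had median log2 ratios of -0.0039, 0.26 and -1.07 in the 3 pools. The part of these differences between pools in the results was not tested.

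The pools were compared tibia against tibia, with each pool's own level removed. A gene was counted when its p before adjustment was under 0.05 and it differed by more than 1 on the log2 scale. Among 15576 genes, 36 met both in the direction of higher (0.231%) and 158 in that of lower (1.01%) in the loaded tibia, together 194 (1.25%). Without pool R4+R5 there were 134, 30 higher and 104 lower. Of the 194, 67 averaged under 1 CPM over the 6 libraries, 16 of those higher and 51 of those lower, against 8.64% of all genes. Without R13+R14 there were 282, 109 higher and 173 lower, and without R15+R11 135, 41 higher and 94 lower. By p alone, 611 genes passed as higher (3.92%) and 458 as lower (2.94%), but this balance depended on scaling, at 427 higher and 626 lower with upper quartile scaling. It also turned in a fit of the 6 L-BAIBA libraries alone, at 416 higher and 515 lower. With no replicate block, 101 were higher and 160 lower. Without R4+R5, 583 were higher and 885 lower by p alone among 15166 genes tested. Without R13+R14 these were 572 and 418 of 15483, and without R15+R11 212 and 221 of 15316. Counts of list members without a pool, given below, are to be read beside these. No gene passed an adjusted p under 0.05 (0%) by edgeR's quasi-likelihood test (smallest 0.65), while edgeR's likelihood ratio test passed 27 and DESeq2 passed 3. Below, "passed" therefore means an unadjusted p under 0.05 by the quasi-likelihood test, and "higher" or "lower" without that word gives only the direction in the loaded tibia. Nothing in the labels ties a pool to a separate day or cage.

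**Figure D1:**
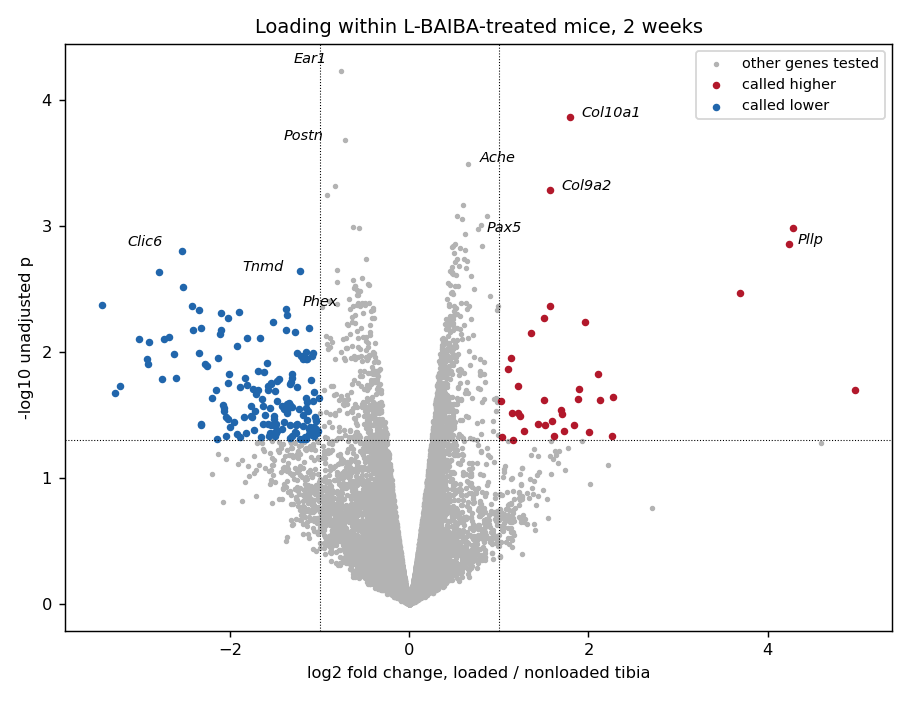
Each point is 1 of 15576 genes, with the log2 fold change of loaded over nonloaded tibiae on the x axis and the -log10 of the unadjusted p on the y axis. Dotted lines mark the thresholds, and 36 genes in red and 158 in blue lie beyond both. *Ear1*, at -0.77, lies inside the fold lines.

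The smallest p among genes higher with loading belonged to *Col10a1*, the collagen of hypertrophic chondrocytes and 1 of 3 cartilage genes that passed as higher. It lies on chromosome 10 from 34389981 to 34397085 in mm10. Its level was 3.19, 10.5 and 13.3 CPM in loaded and 0.296, 3.17 and 4.55 CPM in nonloaded tibiae. Every pool was higher on the loaded side, though the groups overlapped because R4+R5 was low on both sides (log2 fold change 1.80 ± 0.31, SE, unadjusted p = 0.00014). *Col9a2*, a chain of the collagen that decorates type II fibrils, was at 2.71, 4.11 and 4.51 CPM loaded and 1.04, 1.26 and 1.55 CPM nonloaded, with no overlap (log2 fold change 1.57 ± 0.32, unadjusted p = 0.00052). *Lect1*, which encodes chondromodulin and is now named *Cnmd*, followed at 2.87, 1.24 and 1.42 CPM against 1.04, 0.382 and 0.555 CPM, also without overlap (log2 fold change 1.503 ± 0.43, unadjusted p = 0.0054). All 3 calls hold without any 1 pool but depend on the pool as a fixed block. With no replicate block, the unadjusted p was 0.20 for *Col10a1*, 0.21 for *Col9a2* and 0.30 for *Lect1*, and with the pool as a random effect (limma voom) it was 0.21, 0.23 and 0.31.

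The promoter of *Col10a1* is shown because this gene had the smallest p among those higher, and because SOX and RUNX factors are known regulators of chondrocytes. The stretch is GRCm38.p6 chr10:34389731-34390030, plus strand, from 250 bases before to 50 after the RefSeq start, with the only match in capitals.
Col10a1: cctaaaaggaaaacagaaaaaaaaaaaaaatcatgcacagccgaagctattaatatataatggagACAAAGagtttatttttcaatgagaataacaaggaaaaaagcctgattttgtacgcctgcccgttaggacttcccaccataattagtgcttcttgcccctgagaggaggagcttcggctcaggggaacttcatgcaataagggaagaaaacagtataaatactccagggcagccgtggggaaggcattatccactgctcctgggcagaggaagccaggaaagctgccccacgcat
The motifs searched on both strands were ACAAAG for SOX factors and ACCACA for RUNX factors, which 18.7% and 16.9% of the promoters of 27025 genes held. *Col10a1* held the SOX letters, starting at base -185, and the windows of *Col9a2* and *Lect1* held neither.

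As a whole the cartilage list was divided. Of 17 cartilage genes tested, 10 were higher and 7 lower, and 3 passed as higher and 0 as lower (3.92% and 2.94% of all genes). The median log2 fold change was 0.07 against 0.00 for all genes. *Col2a1*, the main collagen of cartilage, was at 326, 438 and 408 CPM loaded and 272, 672 and 412 CPM nonloaded, with overlap. *Acan*, the large proteoglycan, was at 5.26, 11.02 and 12.2 CPM loaded against 1.18, 5.19 and 18.99 CPM, higher in the first 2 pools and lower in the third. The summed level of the list was 1402, 1606 and 1576 CPM loaded and 975, 2054 and 1653 CPM nonloaded, and only *Matn1* had a library at 0. The pools' list medians were 1.11, -0.17 and 0.05, with 15, 8 and 9 of the 17 genes higher, and without each pool in turn 3, 5 and 6 genes passed as higher and 4, 0 and 1 as lower.

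Genes of the B cell lineage formed the list with most passes in 1 direction among genes higher with loading. B cells are made in the marrow from precursors that assemble the antigen receptor under the factors EBF1 and PAX5. *Pax5* was at 23.6, 25.4 and 24.04 CPM loaded and 9.91, 16.5 and 16.7 CPM nonloaded, a separation without overlap (log2 fold change 0.77 ± 0.17, unadjusted p = 0.0011). *Cd79a*, a signalling chain of the B cell receptor, was at 85.1, 65.8 and 69.9 CPM against 62.3, 46.8 and 49.4 CPM (log2 fold change 0.48 ± 0.11, unadjusted p = 0.0014). *Cd22*, an inhibitory co-receptor, was at 38.4, 46.5 and 46.8 CPM against 27.96, 29.5 and 31.7 CPM (log2 fold change 0.56 ± 0.13, unadjusted p = 0.0015). All 3 loaded libraries lay above all 3 nonloaded ones for each of these genes.

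The promoters of *Cd79a* and *Cd22* are shown as members of that list whose windows held a motif. *Cd79a* is GRCm38.p6 chr7:24897247-24897546, plus strand, and *Cd22* is chr7:30878979-30879278, minus strand, printed 5′ to 3′ with the matches in capitals. The RefSeq start used for *Cd22* lies 1314 bases downstream of the gene's start in the files.
Cd79a: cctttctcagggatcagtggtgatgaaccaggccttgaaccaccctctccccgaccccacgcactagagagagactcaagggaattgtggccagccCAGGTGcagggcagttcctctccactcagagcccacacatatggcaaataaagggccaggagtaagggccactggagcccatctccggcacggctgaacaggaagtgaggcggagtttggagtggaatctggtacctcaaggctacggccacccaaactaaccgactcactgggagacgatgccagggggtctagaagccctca
Cd22: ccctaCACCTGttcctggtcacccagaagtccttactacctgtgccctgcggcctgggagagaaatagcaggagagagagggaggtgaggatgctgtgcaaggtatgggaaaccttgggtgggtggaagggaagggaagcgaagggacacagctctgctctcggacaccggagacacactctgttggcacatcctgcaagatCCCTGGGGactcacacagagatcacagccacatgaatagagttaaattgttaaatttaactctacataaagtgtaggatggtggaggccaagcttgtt
The motifs were the E box CACCTG, read by E proteins, and CCCNNGGG, the core of the palindrome read by EBF1. They were searched on both strands and were in 20.03% and 13.4% of all promoters. The E box letters start at base -154 in *Cd79a* and -245 in *Cd22*, where CCCTGGGG starts at -48, and the window of *Pax5* held neither.

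Of 15 B lineage genes, 12 were higher and 3 lower, and 6 passed as higher (3.92% of all genes), none as lower (2.94%). The median log2 fold change was 0.21, and 8 of the 15 were higher in all 3 pools, against 15.8% of all genes. Also among those that passed were *Ms4a1*, which encodes CD20, at 28.1, 29.9 and 35.3 CPM against 21.9, 19.3 and 23.3 CPM, and *Spib*, a transcription factor of B cells, at 45.4, 55.1 and 61.9 CPM against 24.7, 43.1 and 50.4 CPM. Among members that did not pass, *Vpreb1*, part of the surrogate light chain, was at 13.1, 5.91 and 4.38 CPM loaded and 5.62, 6.06 and 9.33 CPM nonloaded. *Igll1*, its partner, was at 17.4, 8.34 and 8.76 CPM and 15.2, 10.2 and 12.9 CPM, and *Ebf1* at 109.9, 65.2 and 64.6 CPM and 77.1, 67.6 and 79.3 CPM. The rest that did not pass had log2 fold changes of 0.24 (*Cd79b*), 0.20 (*Blnk*), 0.21 (*Rag1* and *Rag2*), 0.05 (*Vpreb3*) and -0.04 (*Dntt*). Whether the change differed between the genes that passed and these was not tested. The summed level of the list was 592, 507 and 529.7 CPM in loaded and 419, 410.1 and 476 CPM in nonloaded tibiae, which did not overlap. Without each pool in turn 6, 5 and 5 genes passed, with list medians of 0.17, 0.25 and 0.46, and 5 passed with no replicate block. The pool medians were 0.51, 0.36 and 0.05.

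*Fcer2a*, the low-affinity IgE receptor CD23 of B cells, was no member of that list and was at 20.6, 19.5 and 20.2 CPM loaded and 10.5, 10.4 and 12.2 CPM nonloaded (log2 fold change 0.86 ± 0.19, unadjusted p = 0.00083). All 3 loaded libraries lay above all 3 nonloaded ones. *Gimap3*, a GTPase of lymphocytes, was at 18.02, 23.8 and 24.9 CPM against 10.9, 14.2 and 13.1 CPM (log2 fold change 0.80 ± 0.18). *Tnfrsf14*, a receptor on lymphocytes, was at 19.8, 85.2 and 64.8 CPM against 10.9, 54.7 and 47.98 CPM, where the 3 pools lay far apart but each was higher when loaded. The T and NK cell list had 11 of 15 genes higher and none that passed (median 0.17).

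Several of the 12 genes of smallest p among those higher are known from megakaryocytes and platelets, the cells of clotting. *Vwf*, the adhesion protein of platelets and endothelium, was at 154, 213 and 209 CPM loaded and 99.996, 166 and 118 CPM nonloaded (log2 fold change 0.60 ± 0.13, unadjusted p = 0.00068). *Itga2b*, the platelet integrin subunit, was at 122, 199.8 and 199 CPM against 78.5, 137 and 155 CPM (log2 fold change 0.51 ± 0.12). *Alox12*, the platelet lipoxygenase, was at 72.2, 126 and 129 CPM against 53.99, 86.9 and 75.4 CPM (log2 fold change 0.58 ± 0.13). Each was higher when loaded in all 3 pools, with overlap between the groups because R4+R5 was lowest on both sides. *Parvb*, an adaptor at integrin adhesions, had a log2 fold change of 0.53 ± 0.12 and *Ache*, the acetylcholinesterase, of 0.66 ± 0.13. With no replicate block only *Vwf* of these genes passed (unadjusted p = 0.027, edgeR's quasi-likelihood test). The others were at 0.14 (*Itga2b*), 0.083 (*Alox12*), 0.15 (*Parvb*) and 0.15 (*Ache*). No list of megakaryocyte genes was drawn up, so this grouping was made after the values were seen and carries no count.

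*Pllp*, a membrane protein of myelin, completed the 12 but rested on few counts, 36, 3 and 10 loaded and 1, 1 and 0 nonloaded. Scaled by depth, the summed counts were 21.9-fold higher in loaded tibiae (95% exact interval 5.74 to 186, counting error only), and most of them came from R4+R5. Genes of nerve and Schwann cells, which wrap axons in myelin, had 10 of 14 members higher, 4 of which passed (median 0.21). Among all genes 3.92% passed as higher. *Mbp*, a myelin protein, was at 80.4, 87.6 and 83.8 CPM loaded and 39.1, 73.2 and 68.5 CPM nonloaded, without overlap (log2 fold change 0.51 ± 0.16, unadjusted p = 0.0086). Without R4+R5 no member passed as higher and 1 passed as lower. The summed level of the list was 441, 173 and 202 CPM loaded and 292, 203 and 201 CPM nonloaded.

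**Figure D2:**
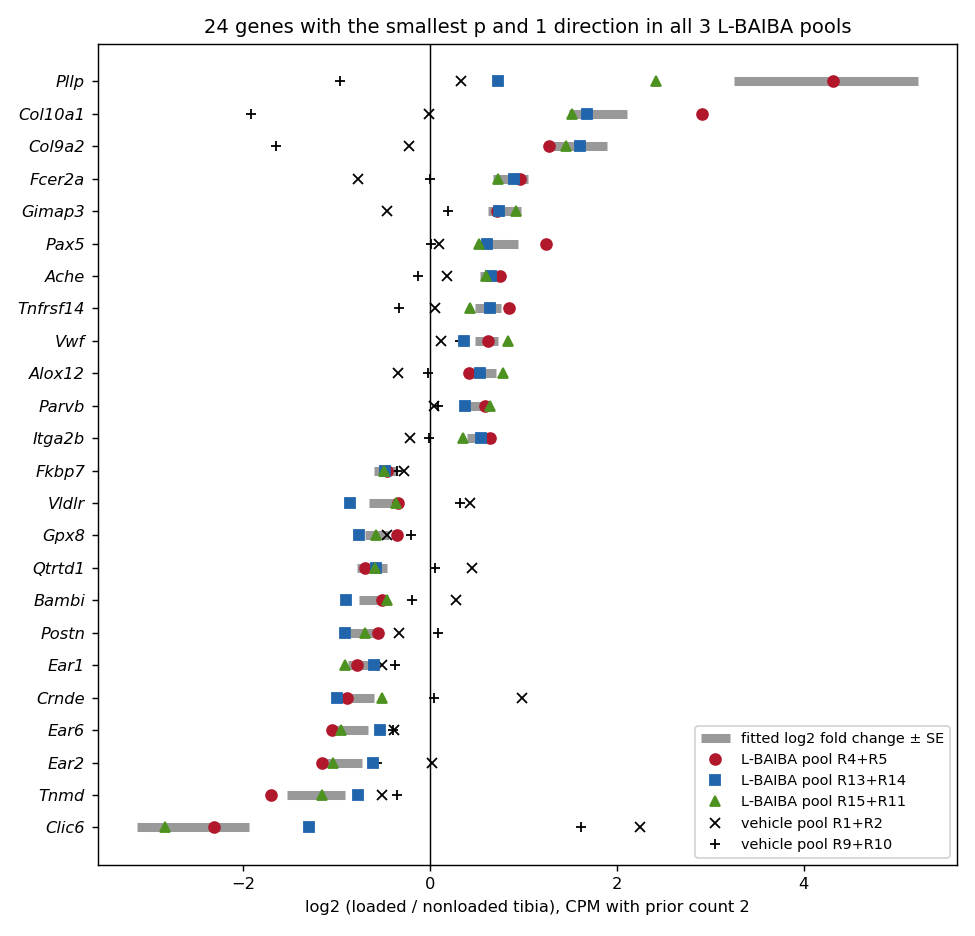
Points are the log2 ratio of loaded to nonloaded CPM (prior count 2) in each pool for the 12 genes of smallest p on each side, grey bars the fitted log2 fold change ± SE, and crosses the 2 vehicle pools with both tibiae. For *Col9a2* the 3 pools lie at 1.27, 1.60 and 1.45 and the vehicle pools at -0.23 and -1.65, and for *Ear1* at -0.78, -0.60 and -0.91 and -0.51 and -0.37.

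On the lower side, the smallest p among the named genes belonged to *Ear1*, a ribonuclease of eosinophil granules. It was at 61.9, 79.7 and 79.5 CPM loaded and 107, 121 and 149.8 CPM nonloaded, without overlap (log2 fold change -0.77 ± 0.12, unadjusted p = 5.8e-05). Its relatives *Ear2* and *Ear6* were at 7.33, 12.1 and 13.7 CPM against 16.6, 18.6 and 28.3 CPM and at 8.61, 12.9 and 14.2 CPM against 18.05, 18.8 and 27.7 CPM. The 3 genes lie on chromosome 14 and are close copies, so a read that fits more than 1 of them was not counted, and they are no independent evidence of each other. The list of neutrophils, which are granulocytes too, had pool medians of -0.51, 0.27 and 0.23, with 7 of 18 genes passing as higher without R4+R5 and 4 as lower without R13+R14.

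*Postn*, the matricellular protein periostin of periosteum, tendon and loaded bone, was at 403, 223 and 186 CPM loaded and 593, 420.3 and 300.1 CPM nonloaded. The loaded tibia was lower in each pool, by a log2 ratio of -0.56, -0.92 and -0.69, and the groups overlapped only because R4+R5 was high on both sides (log2 fold change -0.72 ± 0.13, unadjusted p = 0.00021, 0.065 with no replicate block). *Tnmd*, the tendon protein tenomodulin, was at 2.39, 2.24 and 2.26 CPM loaded and 8.14, 3.93 and 5.22 CPM nonloaded (log2 fold change -1.22 ± 0.31). *Scx*, the transcription factor of tendon cells, was at 2.23, 0.498 and 1.61 CPM against 2.81, 2.07 and 3.44 CPM. These 3 were the members of the periosteum, tendon and joint surface list that passed, all as lower, against 2.94% of all genes. Of the list's 18 genes, 14 were lower in the fit (median -0.27), and 3 were lower in all 3 pools. The pool medians were 0.38, -0.73 and -0.29, with 12, 4 and 5 genes higher, so R4+R5 leaned the other way. The list's summed level was 1048, 771 and 674 CPM loaded and 1082, 1198 and 863 CPM nonloaded. Its median was -0.69, -0.06 and -0.09 without each pool in turn, with 6, 2 and 2 genes passing as lower.

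The list of collagen-modifying enzymes, metalloproteinases and their inhibitors had 4 of 20 members that passed, all as lower (2.94% of all genes). Its pool medians were 0.26, -0.44 and -0.23, with 15, 2 and 1 of the 20 genes higher, so R4+R5 leaned the other way. *Plod2*, the lysyl hydroxylase of collagen telopeptides, was at 190.2, 194 and 240.5 CPM loaded and 249, 282 and 319 CPM nonloaded (log2 fold change -0.45 ± 0.12, unadjusted p = 0.0029). *P4ha1*, a prolyl hydroxylase, was at 216, 125 and 192 CPM against 242, 219 and 257 CPM, and *Mmp16*, a membrane metalloproteinase, at 23.8, 30.9 and 27.9 CPM against 31.8, 46.3 and 40.5 CPM. The fourth was *Timp1*, an inhibitor of metalloproteinases (log2 fold change -0.47 ± 0.15). *Plod2*, *P4ha1* and *Mmp16* had groups without overlap, which 2.87% of all genes did in this direction, but the list's median was only -0.06. Passes as lower numbered 10, 3 and 3 without each pool in turn and 0 with no replicate block. *Gpx8*, a peroxidase of the endoplasmic reticulum, and *Fkbp7*, a prolyl isomerase there, were also lower in each pool (log2 fold change -0.57 ± 0.13 and -0.49 ± 0.12). The structural gene *Col1a1* was at 10639.7, 23169 and 20560.1 CPM loaded and 9411, 26817 and 12655 CPM nonloaded and did not pass.

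The remaining genes of the lower 12 cover several roles. *Clic6*, a member of the chloride channel family, was at 0.478, 0.311 and 0.322 CPM against 2.96, 0.983 and 3.22 CPM, a low gene whose groups did not overlap (log2 fold change -2.54 ± 0.60). *Vldlr*, a lipoprotein receptor, was at 106, 92.8 and 127 CPM against 135, 169 and 163 CPM, and *Qtrtd1*, a subunit of the enzyme that puts queuine into tRNA, at 14.5, 12.3 and 16.05 CPM against 23.7, 18.4 and 24.2 CPM. *Crnde*, a long noncoding RNA, was at 18.2, 10.1 and 17.6 CPM against 33.9, 20.4 and 25.2 CPM. Of the 12 genes chosen on each side, 5 of those higher and 9 of those lower had groups without overlap, where all genes gave 2.34% and 2.87%, but these genes were picked by p from the same libraries.

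Osteocyte genes were mostly lower in the loaded tibia. Of 10, 9 were lower and 1 was higher, 4 passed as lower (2.94% of all genes), and the median log2 fold change was -0.31. *Phex*, the peptidase whose loss causes hypophosphatemic rickets, was at 670.0, 372 and 483 CPM loaded and 884, 783 and 589 CPM nonloaded (log2 fold change -0.59 ± 0.16, unadjusted p = 0.0035). *Mepe*, a matrix phosphoglycoprotein of osteocytes, was at 4017, 1873 and 2883 CPM against 4957, 4072 and 4309.9 CPM, without overlap (log2 fold change -0.67 ± 0.19, unadjusted p = 0.0046). *Ptprz1*, a receptor phosphatase, had a log2 fold change of -0.43 ± 0.16, and the factor *Irx5* one of -0.59 ± 0.26. *Sost*, which encodes sclerostin, was at 3782, 1654 and 3372 CPM loaded and 2506, 3286 and 4216 CPM nonloaded, higher in R4+R5 and lower in the other 2 pools. The pool medians of the list were 0.20, -0.95 and -0.30, and 8, 2 and 3 members passed as lower without each pool in turn. The median was -0.64, -0.03 and -0.34 in those 3 fits, near 0 without R13+R14. With no replicate block no member passed.

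Secreted Wnt antagonists bind Wnt ligands or their co-receptors and hold back bone formation. Of 11 genes, 8 were lower, 3 passed as lower (2.94% of all genes) and the median was -0.43. *Dkk1*, which blocks the LRP co-receptors, was at 121, 89.6 and 142 CPM loaded and 152, 169.8 and 206 CPM nonloaded, without overlap (log2 fold change -0.60 ± 0.17, unadjusted p = 0.0059). *Wif1*, which binds the ligands, was at 352, 175 and 235 CPM against 377, 289 and 324 CPM, and *Dkk3*, a relative of *Dkk1*, at 23.4, 8.59 and 13.4 CPM against 21.2, 20.5 and 20.4 CPM. The list's pool medians were 0.04, -0.85 and -0.46, and 8, 2 and 1 members passed as lower without each pool in turn, with list medians of -0.67, -0.22 and -0.29. With no replicate block 1 member passed.

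The Wnt ligands themselves had no member that passed (0 of 9) and split by pool, with medians of 0.82, -0.78 and -0.11. Without R4+R5, 3 passed as lower and the median went from -0.19 to -0.70, and without R13+R14 it was 0.16. *Wnt1*, a ligand that osteocytes make and bone mass depends on, was at 57.7, 3.98 and 7.86 CPM loaded and 23.8, 12.5 and 10.7 CPM nonloaded. It was higher in the loaded tibia of R4+R5 and lower in that of the others (log2 fold change -0.19 ± 0.46). *Wnt10b* was at 64.9, 12.1 and 22.4 CPM against 46.7, 33.8 and 24.2 CPM, with the same split. Among 20 Wnt receptors and targets, only the factor *Lef1* passed, at 16.3, 12.3 and 11.3 CPM loaded and 8.73, 9.23 and 9.88 CPM nonloaded (log2 fold change 0.48 ± 0.19). *Lef1* did not pass without R4+R5 (unadjusted p = 0.18) or R13+R14 (0.087), and without R4+R5 no member of this list passed as higher and 5 passed as lower.

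**Figure D3:**
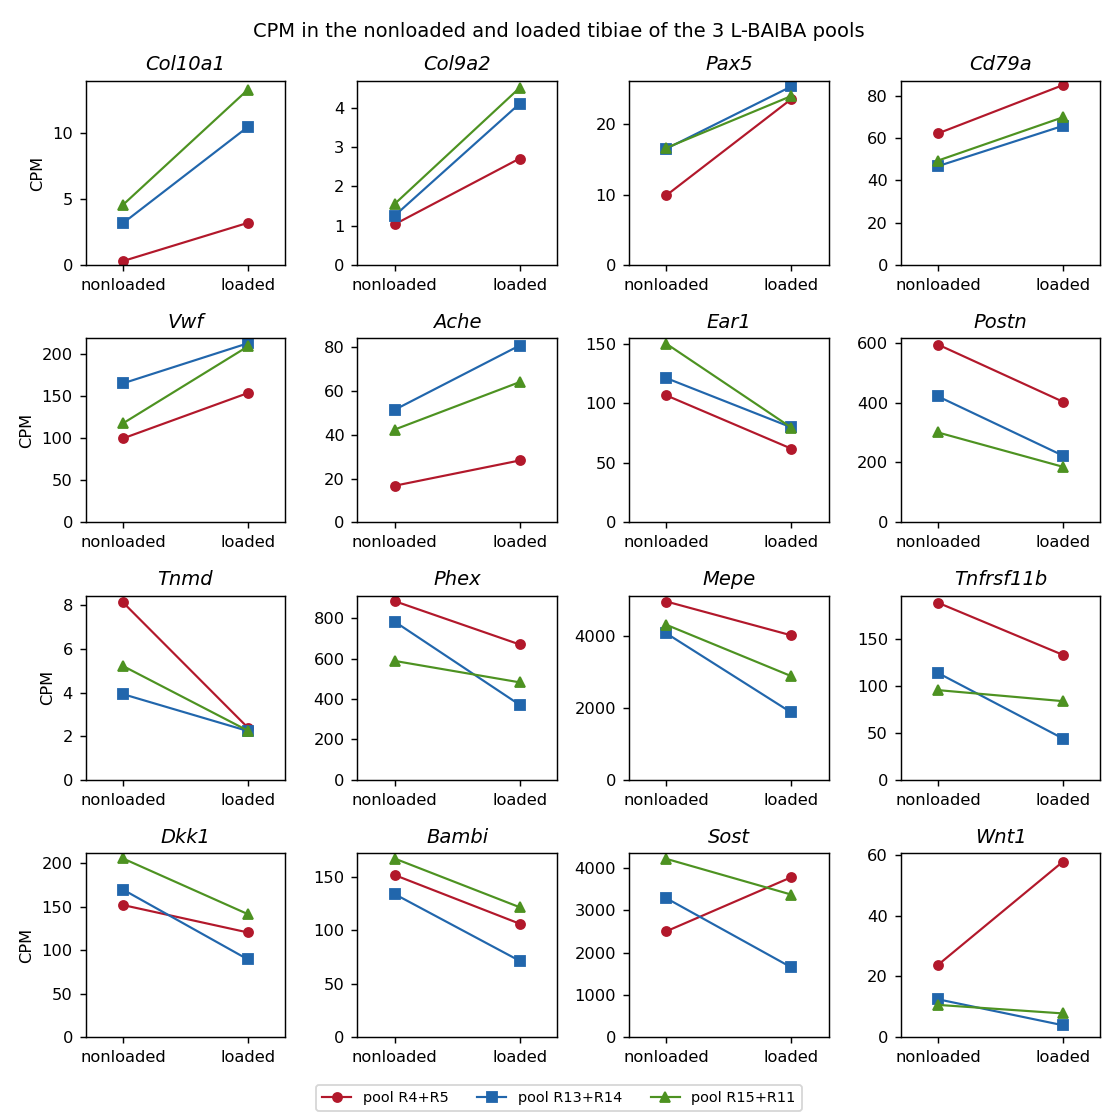
Lines join the nonloaded and loaded tibia of each pool for 16 genes, in CPM from 0. *Mepe*, *Dkk1* and *Bambi* go down in all 3 pools, while *Sost* and *Wnt1* go up in R4+R5 and down in the other 2.

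BMPs signal through type I and II receptors and Smads, which switch on the *Id* genes. Of 28 receptors, Smads, targets and antagonists, 5 passed, all as lower, against 2.94% of all genes, with a list median of -0.06. The pool medians were 0.21, -0.39 and -0.09. *Bambi*, a pseudoreceptor that blunts these signals, was at 106, 71.5 and 122 CPM loaded and 152, 134 and 167 CPM nonloaded, without overlap (log2 fold change -0.63 ± 0.14, unadjusted p = 0.001). *Id1* was at 216, 69.5 and 114 CPM against 288, 139 and 153 CPM, *Id2* at 152, 68.6 and 69.98 CPM against 185, 82.1 and 97.96 CPM, and *Id3* had a log2 fold change of -0.39 ± 0.18. The type I receptor *Bmpr1a* was at 74.5, 44.4 and 56.8 CPM against 83.7, 64.5 and 72.4 CPM. Each of these 5 genes was lower in the loaded tibia of all pools, but the calls other than *Bambi* depended on the pool and the block. Members that passed as lower numbered 7, 2 and 3 without each pool in turn, with list medians of -0.25, 0.05 and -0.08, and 1 with no replicate block. Among 19 ligands, *Bmp4* (log2 fold change -0.45 ± 0.14) and *Bmp3* (-0.46 ± 0.16) passed as lower and *Inhba*, a subunit of activins, as higher (0.41 ± 0.16). Ligands that passed as lower numbered 8, 0 and 2 without each pool in turn, with list medians of -0.50, -0.02 and -0.20, and 0 with no replicate block. *Bmp2* was at 259.6, 69.3 and 101 CPM loaded and 169, 139 and 95.2 CPM nonloaded and did not pass.

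A list of genes known from loading studies of bone had most members lower. Of 14 genes, 13 were lower in the fit, with a median of -0.32. As lower 6 passed and as higher none, against 2.94% and 3.92% of all genes. The pool medians were 0.14, -0.64 and -0.36, with 8, 1 and 3 of the 14 genes higher, so R4+R5 leaned the other way. In all 3 pools 6 genes were lower. Besides *Postn*, *Tnfrsf11b*, the decoy receptor osteoprotegerin that restrains osteoclasts, was at 133, 44.002 and 83.8 CPM loaded and 188, 114 and 95.5 CPM nonloaded (log2 fold change -0.69 ± 0.20, unadjusted p = 0.0061). *Cthrc1*, a secreted protein of collagen-forming cells, was at 19.3, 32.5 and 30.5 CPM against 36.4, 46.7 and 44.1 CPM, without overlap. *Ptn*, the growth factor pleiotrophin, was at 4.3, 1.62 and 2.45 CPM against 9.02, 3.38 and 3.89 CPM. The list's median without each pool in turn was -0.51, -0.20 and -0.33, and 11, 5 and 4 members passed as lower, against 0 with no replicate block. This list and those of bone matrix and of collagen-modifying enzymes and metalloproteinases share members, so their counts are not separate evidence. The ligand that osteoprotegerin captures, *Tnfsf11*, was at 31.4, 9.27 and 7.86 CPM loaded and 23.96, 12.1 and 8.88 CPM nonloaded and did not pass.

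Bone matrix genes followed, with 17 of 22 lower in the fit and 4 that passed, all as lower (median -0.16), against 2.94% of all genes. Pool medians were 0.11, -0.37 and -0.18, with 13, 0 and 3 of the 22 genes higher, so R4+R5 leaned the other way. *Spp1*, which encodes osteopontin, was at 5354, 3010.0 and 2688 CPM loaded and 7246, 3768 and 3423 CPM nonloaded. *Omd*, the proteoglycan osteomodulin, was at 74.3, 35.9 and 43.2 CPM against 108, 65.7 and 59.97 CPM. *Bglap2*, a copy of osteocalcin whose reads it may share with *Bglap*, was at 149.6, 109 and 142 CPM against 196, 141 and 161 CPM. Passes as lower numbered 6, 3 and 1 without each pool in turn and 0 with no replicate block.

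The direction of many other lists depended on the pool. Over the 14231 genes averaging at least 1 CPM, the log2 ratios of R13+R14 and R15+R11 had a Pearson r of 0.23 across genes, while R4+R5 had an r of -0.04 with the former and 0.10 with the latter, as a description over genes that share libraries. Immediate early genes, switched on within minutes of a stimulus, had pool medians of 0.42, -0.67 and -0.14, with *Egr1* at 3675, 1385 and 1889 CPM loaded and 2351, 2585 and 2121 CPM nonloaded. *Ier3* passed as lower, but not without R13+R14 (unadjusted p = 0.066) or with no replicate block (0.63). *Myc* passed as higher, but not without R4+R5 (unadjusted p = 0.08), without R15+R11 (0.092) or with no replicate block (0.12). Circadian genes had pool medians of 0.29, -0.41 and -0.22, and *Clock* and *Nr1d2*, a core activator and a repressor of the daily cycle, passed as lower, *Clock* at 51.8, 48.7 and 50.3 CPM against 60.9, 69.1 and 62.97 CPM without overlap. Without R4+R5, 8 immediate early and 8 circadian genes passed as lower, and without R13+R14 none of either list did. Over all genes, 885 of 15166 passed as lower in the former fit and 418 of 15483 in the latter.

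DNA replication and mitosis genes turned the other way. All 28 had a positive fitted log2 fold change, but the median was 0.09, 3 passed, and pool medians were -0.35, 0.32 and 0.27, so that 4 of the 28 were higher in R4+R5 and 28 in each other pool. *Mcm5*, a subunit of the replicative helicase, was at 171, 259 and 247 CPM loaded and 143, 203 and 207 CPM nonloaded. Without R4+R5, 15 passed as higher, and without either other pool the median fell below 0 and none passed. Replication-dependent histones, whose mRNAs lack a poly(A) tail, had pool medians of -0.91, 0.47 and 0.27, and erythroid genes of -0.33, 0.34 and 0.32, 7 of 12 of which passed as higher without R4+R5 and 0 with it. In each of these 3 lists R4+R5 stood opposite to the other 2 pools.

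**Figure D4:**
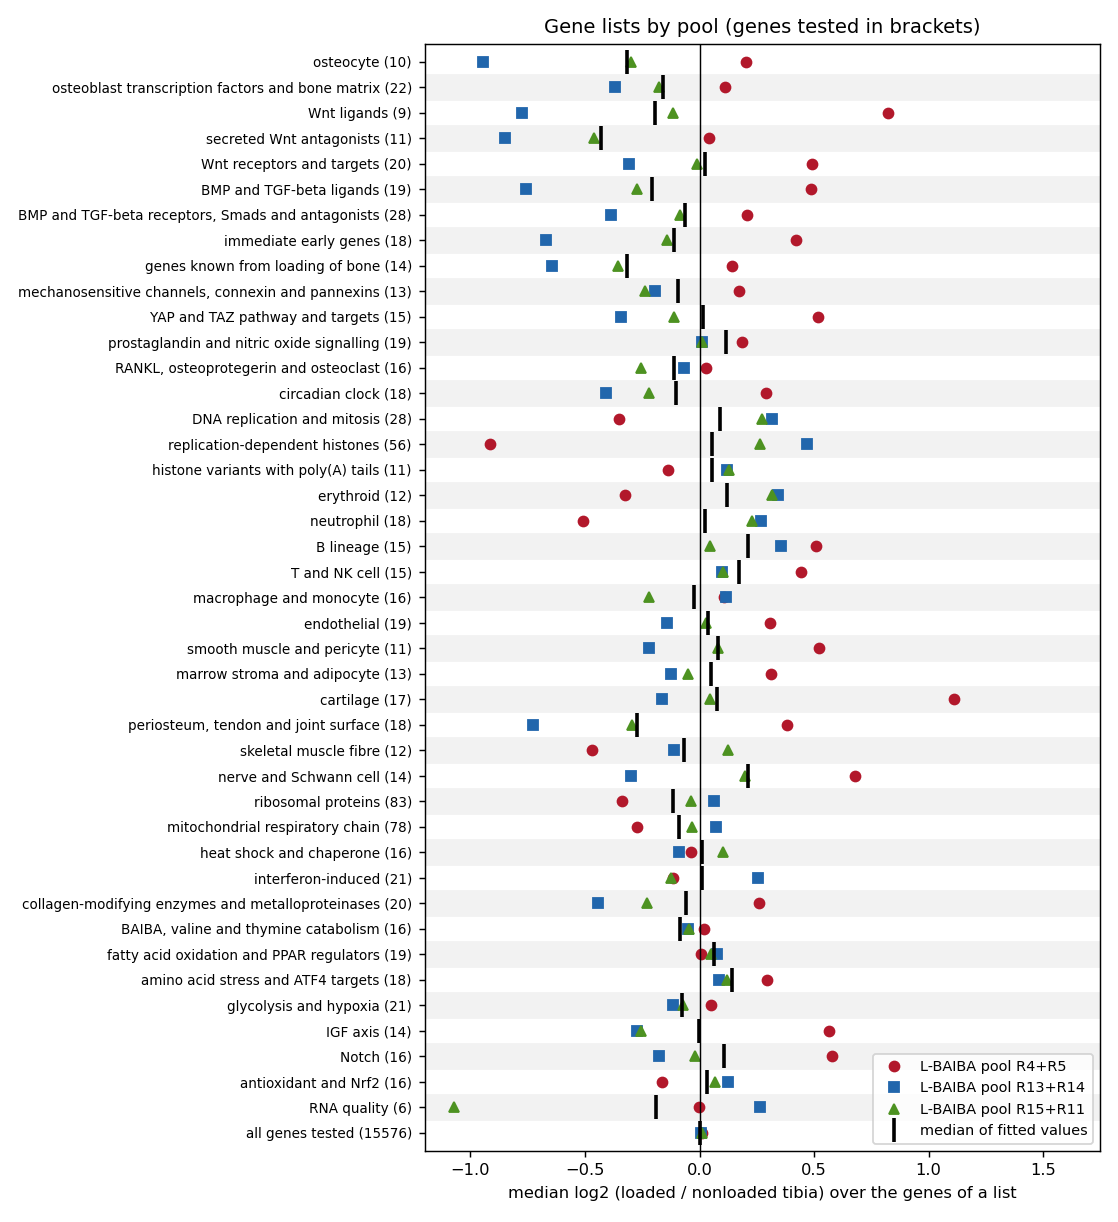
Rows are the 42 gene lists and all genes, with the number of genes tested. Symbols give each pool's median log2 ratio and bars the median of the fitted values. R4+R5 and R13+R14 lie on opposite sides of 0 in lists such as osteocyte genes (0.20, -0.95 and -0.30) and histones (-0.91, 0.47 and 0.27), while all genes lie at 0.01 in each pool.

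The other lists held few members that passed. Ribosomal proteins had 75 of 83 genes lower in the fit with a median of -0.12, and 1 passed. Their pool medians were -0.34, 0.06 and -0.04, with 2, 70 and 26 genes higher. Mitochondrial respiratory chain genes had 63 of 78 lower with a median of -0.09, and 0 passed. Pool medians there were -0.27, 0.07 and -0.03, with 11, 57 and 32 genes higher. In both lists most genes were thus higher in R13+R14. In amino acid stress genes, the transporters *Slc7a1* and *Slc7a5* passed as higher (log2 fold change 0.36 ± 0.12 and 0.30 ± 0.12) and *Nupr1* as lower (-0.41 ± 0.14), none of which did without R15+R11. The mechanosensitive channel gene *Piezo1* passed as higher, at 254, 206 and 187 CPM loaded and 136, 202 and 143 CPM nonloaded, 1 of 13 genes of its list. It did not pass without R4+R5 (unadjusted p = 0.21), where 2 members passed as lower. Genes that break down BAIBA, valine and thymine had no member that passed (0 of 16, median -0.09). With all pools, neither did the macrophage, smooth muscle, interferon, IGF, YAP and TAZ or antioxidant lists, whose medians lay from -0.03 to 0.08. Without R4+R5, 6 of 14 IGF genes (median -0.30) and 6 of 15 YAP and TAZ genes (-0.26) passed as lower. Muscle fibre genes summed to 30.5, 32.7 and 33.3 CPM loaded and 43.6, 33.6 and 30.1 CPM nonloaded, with *Myh1*, a fast myosin at 0.478, 0.187 and 0.644 CPM and 2.66, 0.546 and 1.55 CPM, the 1 of 12 that passed, as lower (unadjusted p = 0.11 without R4+R5).

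Whether loading acted differently under L-BAIBA and vehicle was tested as the difference of the 2 loading effects. With the same thresholds set on that difference, 73 genes had a higher loading effect with L-BAIBA (0.469%) and 536 a lower one (3.44%), together 609 (3.91%), and none passed an adjusted p under 0.05 (0%, smallest 0.34, edgeR's quasi-likelihood test). Without the size threshold 1834 genes passed (11.8%), 892 with a higher and 942 with a lower effect, so the 2 directions were then nearly balanced. With upper quartile scaling they were 576 and 1214. The smallest adjusted p by edgeR's likelihood ratio test was 4.4e-09. Without R4+R5, 1512 genes passed with a higher and 1643 with a lower effect, and without R13+R14 361 and 646. Only 2 of the vehicle pools gave both tibiae, and the other 2 vehicle libraries came from pools with 1 tibia each, which carry no weight on loading in a fit by pool. The loading effect of *Col10a1* was 1.80 ± 0.31 with L-BAIBA and -1.66 ± 0.39 with vehicle, a difference of 3.46 ± 0.50 (adjusted p = 0.34). In the vehicle pools its log2 ratios were -0.01 and -1.92 with a prior count of 2, so that 1 pool carried most of the vehicle value. For *Phex* the effects were -0.59 ± 0.16 and 0.54 ± 0.19 (difference -1.12 ± 0.25), with vehicle ratios of 0.60 and 0.47 that both lay above the 3 of L-BAIBA. The effects of *Tnfrsf11b* were -0.69 ± 0.20 and 0.35 ± 0.24 (difference -1.03 ± 0.32), and those of *Cd22* 0.56 ± 0.13 and -0.22 ± 0.16 (difference 0.78 ± 0.21). *Ear1* was lower in both, at -0.77 ± 0.12 and -0.44 ± 0.14, and its difference of -0.32 ± 0.19 did not pass. The genes given here were named with their small p within L-BAIBA known. That effect enters the difference, so the choice tends to enlarge it.

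At the level of lists, the members whose loading effect differed by an unadjusted p under 0.05 numbered 6 of 10 for osteocyte genes (median difference -0.82) and 14 of 28 for DNA replication and mitosis (0.54). They numbered 55 of 83 for ribosomal proteins (0.49), and within vehicle 76 of the 83 passed as lower. For the B lineage they numbered 6 of 15 (median difference 0.42), against 11.8% of all genes, and within vehicle 0 passed as higher and 1 as lower (5.97% and 7.54% of all genes). The osteocyte medians were 0.20, -0.95 and -0.30 in the L-BAIBA pools and 0.60 and 0.09 in the vehicle pools. Those of DNA replication and mitosis were -0.35, 0.32 and 0.27 against -0.54 and -0.33. In both lists R4+R5 lay between the vehicle pools, so the difference came from R13+R14 and R15+R11.

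After a single bout of loading in mice given L-BAIBA for 5 days, an experiment with other mice and a table normalized separately, 2 pools gave both tibiae. The values are set side by side without a test, since doses of loading and times differ. *Ear1* had log2 ratios of 1.97 and -0.14 there, *Col10a1* of -0.37 and -0.40, *Cd79a* of 0.65 and -0.29 and *Mepe* of -0.46 and 0.63. The 2 pools lay on opposite sides of 0 for *Ear1*, *Cd79a* and *Mepe*. Medians of the lists were -0.33 and 0.46 for osteocyte genes, 0.44 and -0.20 for the B lineage and -0.34 and 0.57 for secreted Wnt antagonists. *Clic6* was lower in both experiments, with ratios of -1.201 and -1.02 after the single bout.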

How the data were processed

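RNA came from osteocyte-enriched cortical bone of the tibia after marrow flushing, removal of the epiphyses and digestion. Poly(A) libraries were sequenced paired-end. Per the study's methods, reads were aligned with STAR 2.5.2b to mm10 and unique reads counted by strand with featureCounts (Subread 1.5.1). The authors deposited raw counts per gene, which were used here. Another 23 deposited columns, of normalized log2 values, and the authors' own comparisons (fold changes, p values, FDR) were not used.

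The 12 libraries of the 2-week table were fitted together with edgeR 4.0.16 (R 4.3.3, quasi-likelihood test, TMM scaling, Benjamini-Hochberg adjustment), keeping 15576 genes over 0.5 CPM in at least 4 libraries. Mouse pool was a block, with a loading effect for each treatment. Pools pair the tibiae because the labels give both legs of the same mice, and the deviations of paired libraries correlated at 0.56, 0.44 and 0.26. Libraries of different pools correlated from -0.50 to 0.26. The loaded library of R15+R11 reached 0.26 with the nonloaded one of R13+R14 too, so these values do not single out its own partner. The errors after ± are standard errors. Each library pools 2 mice, and the block removes each pool's level. The p values therefore measure the spread between pools in the ratio of loaded to nonloaded tibia, not between mice. The fit left 3 residual degrees of freedom, over L-BAIBA and vehicle pools together. With 3 pools an exact sign permutation test cannot go below a two-sided p of 0.25. Total counts per library are in the report and their number limits precision for low genes.

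Named genes were the 12 of smallest p on each side among those averaging at least 1 CPM and changed the same way in all 3 pools (predicted genes, microRNAs and small nucleolar RNAs passed over), and, from each of 42 gene lists, its key members and the 3 of smallest p, some left out of the text. Members and lists were chosen with earlier results of these data known. The 12 alternatives covered the block, the libraries fitted, the test (likelihood ratio, DESeq2 1.42.0, limma 3.58.1), scaling, filters and leaving out each pool. The fit was also run on simulated data that had the same loading effect in every L-BAIBA pool, so that run does not cover pools that respond differently. Promoters came from RefSeq (GRCm38.p6). Some members counted in the lists are not reported here by name.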

Additional observations from a re-analysis of the deposited data

Results flagged for a closer look

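Among the 24 genes of smallest p, 9 went one way in every L-BAIBA pool and the other way in both vehicle pools, as did 1 gene list. These 24 were chosen for 1 direction in all L-BAIBA pools and a small p, which enlarges their difference from vehicle. Of all 4637 genes with 1 direction in those 3 pools, 33.4% went the other way in both vehicle pools, so 9 of 24 is near that share. By edgeR's quasi-likelihood test, each of the 9 differences had an adjusted p of 0.34. The difference (L-BAIBA minus vehicle, log2) was 3.46 ± 0.50 for *Col10a1*, 2.90 ± 0.48 for *Col9a2* and 1.25 ± 0.29 for *Fcer2a*. It was 0.77 ± 0.20 for *Alox12* and 0.62 ± 0.19 for *Itga2b*. In these 5 genes every L-BAIBA pool was higher and both vehicle pools lower in the loaded tibia. Of the vehicle pools, 1 was close to 0 for *Col10a1* (-0.01 and -1.92), *Fcer2a* (-0.77 and -0.0018), *Alox12* (-0.35 and -0.02) and *Itga2b* (-0.22 and -0.01).

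The reverse held for *Clic6* (-5.27 ± 1.04), *Crnde* (-1.31 ± 0.32), *Vldlr* (-0.90 ± 0.21) and *Qtrtd1* (-0.88 ± 0.25), lower when loaded in every L-BAIBA pool and higher in both vehicle pools. *Clic6* is a low gene, and its vehicle pools had log2 ratios of 2.25 and 1.62. The list of fatty acid oxidation genes and PPAR regulators had pool medians of 0.01, 0.08 and 0.05 with L-BAIBA and -0.02 and -0.01 with vehicle. Its median difference was 0.14, and this difference was not tested.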

How the results depend on the processing

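The 194 genes past both thresholds became 113 with no replicate block, 354 with the likelihood ratio test and 91 when genes had to exceed 1 CPM in at least 6 libraries, and ranged from 134 to 282 when 1 pool was left out. The count past an adjusted p of 0.05 was 0 in the main analysis, 27 with the likelihood ratio test, 3 with DESeq2 and 0 under the other alternatives, leaving out any pool included. The 609 genes whose loading effect differed between treatments became 919 with the likelihood ratio test and ranged from 532 to 775 without 1 pool. The cause of these shifts was not tested. All 24 genes of smallest p kept their direction under every alternative that gave a value, which 2 genes lacked in the fit of the 6 libraries alone and in the stricter filter. With no replicate block 10 of them no longer passed, among them *Col10a1*, *Col9a2* and *Postn*. With the block as a random effect 3 did not (*Col10a1*, *Col9a2* and *Tnfrsf14*), and without R4+R5 *Pllp* did not. Of 42 list medians, 26 changed sign when some pool was left out. Low genes made up a large share of the calls, and depth, lowest in R4+R5, limits them.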
